A study of Mus musculus with 4 samples.

Results

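The genes of 2 families of splicing factors, the SR proteins (symbols starting with Srsf) and the heterogeneous nuclear ribonucleoproteins or hnRNPs (symbols starting with Hnrnp), were described in mouse regulatory T cells. Members were all protein-coding genes whose symbol in the GENCODE M21 annotation starts with either prefix. The rule found 31 of the 50600 genes in the files, 11 of them Srsf and 20 Hnrnp, among 21764 protein-coding genes. The 4 libraries form a single group, biological replicates 1 to 4 of regulatory T primary cells of strain C57BL/6NJ, so there is no comparison of conditions. Each library has its own biosample record, while 1 donor record is shared by all, age is unknown and sex was not collected. Nothing in the labels assigns the libraries to separate animals or cultures, so p-values describe only these 4 libraries. They concern either the differences of a gene between libraries or a difference between genes or families within each library. Counts of the RNA Xist were 80991 (replicate 1) and 129767 (replicate 2), against 285 (replicate 3) and 429 (replicate 4). For this gene the libraries did not behave as repeats of 1 RNA sample. How much of the members' spread is technical was not tested. A protocol for differentiating CD4+ T cells is linked to the samples, and the file headers name the samples as activated and sorted, at 72 h. The assay title is total RNA-seq, but the library protocol attached to it is for poly(A)+ RNA by its name.

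SR proteins carry RNA recognition motifs and a tail rich in alternating arginine and serine. They bind exonic enhancers and help to bring the U1 particle and the U2AF factor to nearby splice sites, and kinases of the SRPK and CLK groups phosphorylate the tail. The hnRNPs coat nascent transcripts through RNA recognition motifs or KH domains, often next to glycine-rich regions, and many of them oppose SR proteins at silencer sites. In T cells, hnRNP L and hnRNP LL are known for controlling the alternative exons of the CD45 phosphatase gene.

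Coding sequences of leading members and of the lowest member of each family are shown first, because they carry the feature each family is known for. Each line is a stretch of 20 codons, 5′ to 3′, from the principal coding transcript in GENCODE M21. In the Srsf lines the stretch is the one richest in adjacent serine and arginine codons, and arginine codons are in capitals.
Srsf2: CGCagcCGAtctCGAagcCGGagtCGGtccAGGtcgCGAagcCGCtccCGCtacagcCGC
Srsf7: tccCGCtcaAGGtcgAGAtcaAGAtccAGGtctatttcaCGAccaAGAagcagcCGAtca
Srsf1: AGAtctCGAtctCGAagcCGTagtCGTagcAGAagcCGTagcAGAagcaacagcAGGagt
Srsf12: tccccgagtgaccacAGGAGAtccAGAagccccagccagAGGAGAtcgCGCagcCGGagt
In Srsf2, 10 of the 20 codons (codons 127 to 146) encode arginine, each of them next to a serine codon. Srsf7 (codons 192 to 211) has 8, Srsf1 (codons 204 to 223) has 9 and Srsf12 (codons 110 to 129) has 7.

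In the Hnrnp lines the stretch is the one richest in glycine codons, which are in capitals.
Hnrnpab: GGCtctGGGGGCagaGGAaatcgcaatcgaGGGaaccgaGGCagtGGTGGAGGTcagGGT
Hnrnpa2b1: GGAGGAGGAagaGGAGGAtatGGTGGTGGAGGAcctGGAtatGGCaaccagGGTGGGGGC
Hnrnpr: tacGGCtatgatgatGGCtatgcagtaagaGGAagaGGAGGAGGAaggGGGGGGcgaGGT
Hnrnpa2b1 (codons 251 to 270) has 14 glycine codons of 20, Hnrnpab (codons 246 to 265) has 10 and Hnrnpr (codons 490 to 509) has 9.

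Over whole coding sequences the families differed most in serine and arginine pairs, where Srsf9, Hnrnpdl and Hnrnpul2 were the exceptions, and overlapped in glycine content. Srsf members had a median of 41 adjacent pairs of a serine and an arginine codon, from 9 in Srsf9 to 106 in Srsf4, against a median of 4 in Hnrnp members and 3 over 21383 protein-coding genes. At least 10 such pairs were present in 10 of 11 Srsf members and in 2 of 20 Hnrnp members, Hnrnpdl with 10 and Hnrnpul2 with 13, against 11.9% of all protein-coding genes. Glycine made up a median of 12.99% of Hnrnp codons, 7.44% of Srsf codons and 6.01% of codons over all protein-coding genes. Glycine reached 15% of codons in 7 of 20 Hnrnp members, in 0 of 11 Srsf members and in 1.09% of all protein-coding genes. Srsf1, at 14.1%, lay above the Hnrnp median, and Hnrnpc, at 7.19%, below the Srsf median. The triplet of arginine, glycine and glycine codons (RGG), a site of arginine methylation and RNA contact, occurred at least 2 times in 11 of 20 Hnrnp and 2 of 11 Srsf members, against 1.92% of all protein-coding genes. Hnrnpr and Hnrnpu each had 8 such triplets.

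**Figure D1:**
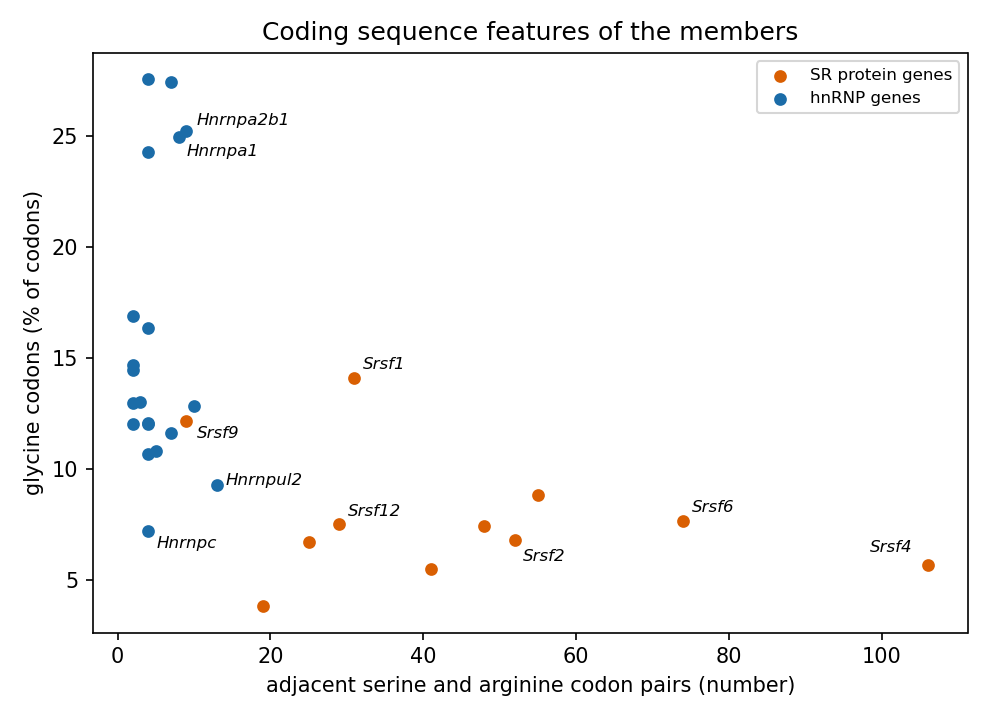
Adjacent serine and arginine codon pairs (x axis, number) against the share of glycine codons (y axis, % of codons) in the principal coding transcript of each of the 31 members. Srsf members extend to the right, up to 106 pairs in Srsf4, and Hnrnp members extend upward, while Srsf9 with 9 pairs and 12.2% glycine lies among the Hnrnp points.

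Promoters are shown for the highest and the lowest member of each family, since these span the range of levels described next. They run from 250 bases before to 50 after the start of the gene in the RefSeq table (build GRCm38.p6), 5′ to 3′ on the gene's strand. Capitals mark exact matches on either strand to the CCAAT box (CCAAT), the GC box (GGGCGG) and the TATA box (TATAAA), and neighbouring GC boxes in Srsf2 overlap in 1 run of capitals. The regions are chr11:116853045-116853344 (minus strand) for Srsf2, chr4:33209022-33209321 (plus) for Srsf12, chr15:103240147-103240446 (plus) for Hnrnpa1 and chr4:136310692-136310991 (plus) for Hnrnpr.
Srsf2: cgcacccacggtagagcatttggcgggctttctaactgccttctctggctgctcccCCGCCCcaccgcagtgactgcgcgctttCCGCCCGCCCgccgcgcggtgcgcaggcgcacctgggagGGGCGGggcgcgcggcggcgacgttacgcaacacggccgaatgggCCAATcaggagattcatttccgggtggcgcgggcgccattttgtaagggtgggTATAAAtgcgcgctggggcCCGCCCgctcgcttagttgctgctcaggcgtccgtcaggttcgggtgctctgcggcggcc
Srsf12: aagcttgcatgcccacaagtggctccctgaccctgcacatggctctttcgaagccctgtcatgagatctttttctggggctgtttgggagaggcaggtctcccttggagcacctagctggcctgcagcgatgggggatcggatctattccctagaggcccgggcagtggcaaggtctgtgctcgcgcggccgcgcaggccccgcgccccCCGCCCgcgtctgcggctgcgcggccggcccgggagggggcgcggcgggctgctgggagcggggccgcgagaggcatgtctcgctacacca
Hnrnpa1: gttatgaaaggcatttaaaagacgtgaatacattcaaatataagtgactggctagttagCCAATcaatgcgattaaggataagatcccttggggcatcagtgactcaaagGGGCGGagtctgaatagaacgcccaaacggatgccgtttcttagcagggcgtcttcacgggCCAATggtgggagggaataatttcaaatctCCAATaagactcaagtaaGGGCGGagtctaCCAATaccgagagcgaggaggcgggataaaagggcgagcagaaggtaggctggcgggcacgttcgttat
Hnrnpr: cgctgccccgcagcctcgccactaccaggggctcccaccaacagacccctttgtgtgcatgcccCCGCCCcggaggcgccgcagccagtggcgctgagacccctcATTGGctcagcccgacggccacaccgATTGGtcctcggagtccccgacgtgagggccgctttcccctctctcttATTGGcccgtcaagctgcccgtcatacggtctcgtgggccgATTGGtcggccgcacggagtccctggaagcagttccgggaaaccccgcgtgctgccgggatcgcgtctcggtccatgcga
The Srsf2 promoter held a TATA box match that begins 29 bases before the start, a CCAAT box 82 bases before it and 5 GC box matches. Hnrnpa1 held 4 CCAAT boxes, beginning 19, 49, 79 and 191 bases before the start, and 2 GC boxes. Hnrnpr also held 4 CCAAT boxes, at 30, 71, 119 and 145 bases before the start. Srsf12 held 1 GC box and neither of the other motifs; its RefSeq start lies 281 bases from the start of its principal GENCODE transcript.

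Of the 31 members, 29 had a promoter in the table, 11 Srsf and 18 Hnrnp. Their GC content was high, with a median of 69.0% in Srsf and 66.0% in Hnrnp promoters against 52.7% over 32851 promoters. The CCAAT box was present in 13 of 18 Hnrnp and 4 of 11 Srsf promoters, against 37.4% of all. The GC box was present in 10 of 11 Srsf and 14 of 18 Hnrnp promoters, against 35.7% of all. The TATA box was present in 2 Srsf and 2 Hnrnp promoters (13.6% of all), and the E-box CACGTG in 0 Srsf and 4 Hnrnp promoters (7.15% of all). The ETS site CCGGAAG was present in 4 Srsf and 2 Hnrnp promoters (8.86% of all), and the NRF1 site in its palindromic form in none of the members' promoters (0.971% of all). The RefSeq start lay 2349 bases from that of the principal GENCODE transcript in Hnrnpl and 1402 bases in Hnrnpm. It lay 385 bases away in Hnrnpk and 324 in Srsf10. A match is a string of letters and says nothing about binding in these cells.

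Levels are in TPM, the count of a gene divided by its length and scaled to a fixed total per library, with the union of annotated exons in the same files as the length. The libraries held 46044354, 72147632, 94983494 and 32648138 counts in replicates 1 to 4. All 6 regulatory T cell markers and all 6 T cell markers reached 1 TPM in every library, with Foxp3 at 463 ± 25.4 TPM (SD, n = 4). The summed level of 4 B cell markers ranged from 0.663 to 1.04 TPM and that of 6 monocyte, macrophage and dendritic cell markers from 1.4 to 3.35 TPM, while neutrophil markers had no counts. The 4 NK cell markers summed to 1.58 to 2.73 TPM and the CD8 T cell markers to 12.6 to 16.6 TPM, with Cd8b1 at 14.4 ± 2.09 TPM and Cd8a at 0 to 0.671 TPM; their part in the members' levels was not tested. Replicate 1 stood apart in 2 abundant non-coding RNAs, Malat1 (131 TPM, against 42.5 to 55.2 in the others) and Gm42418 (11891 TPM, against 1555 to 4335). Replicates 1 and 2 held Xist at 312 and 331 TPM, and replicates 3 and 4 at 0.539 and 2.38 TPM. In bulk RNA, fewer cells of a type and less RNA per cell cannot be told apart.

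Nearly all members were expressed in these cells, taken as 1 TPM or more in every library. All 20 Hnrnp members and 10 of 11 Srsf members passed, the exception being Srsf12, against 10680 of 21764 protein-coding genes. The hnRNP genes were the more abundant family, with a summed level of 6192 ± 216 TPM against 2076 ± 79.5 TPM for the SR protein genes (SD, n = 4). Levels over 100 TPM were reached by 15 Hnrnp and 8 Srsf members. Across all tested protein-coding genes the median level was 26.3 TPM.

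**Figure D2:**
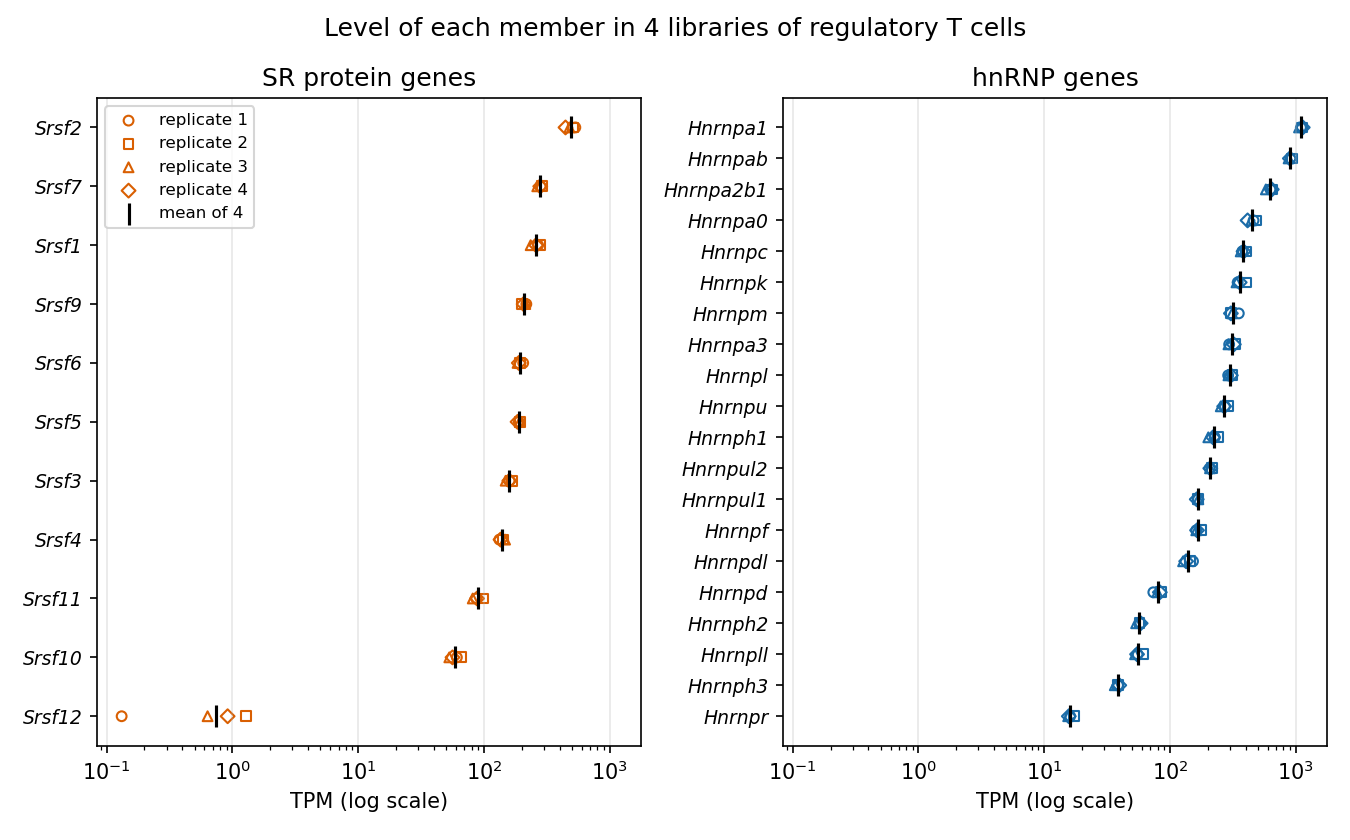
TPM (x axis, log scale) of each SR protein gene (left) and hnRNP gene (right) in 4 libraries, with 1 symbol per replicate and a black bar for the mean. The points of a gene lie close together relative to the distance between genes, except for Srsf12, which spans 0.132 to 1.28 TPM.

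Statements on which library was highest or lowest refer to TPM unless another scale is named. Summed by family, the Srsf genes stood at 2141, 2149, 2005 and 2010.3 TPM in replicates 1 to 4, and the Hnrnp genes at 6197, 6454, 5925 and 6191 TPM. Both sums were lowest in replicate 3 and highest in replicate 2, and the families did not overlap. The ratio of the Hnrnp to the Srsf sum was 2.89, 3.00, 2.96 and 3.08, with a mean of 2.98 ± 0.0781 (SD, n = 4). On the log2 scale the difference was 1.58 ± 0.04, above 0 in 4 of 4 libraries (exact two-sided sign-flip permutation p = 0.13, the smallest that 4 libraries allow; 0.13 after adjustment over the 11 contrasts tested). The Hnrnp family has more members, and per member the gap was narrower: the median member stood at 248 ± 14.0 TPM in Hnrnp and 189 ± 4.27 TPM in Srsf. The difference of the medians of log2(TPM + 1) was 0.38 ± 0.05, above 0 in 4 of 4 libraries (exact two-sided sign-flip permutation p = 0.13, adjusted 0.13), and 0.78 in CPM, counts scaled to the library total without length correction. The Hnrnp genes took 0.875% of all counts and the Srsf genes 0.251%.

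**Figure D3:**
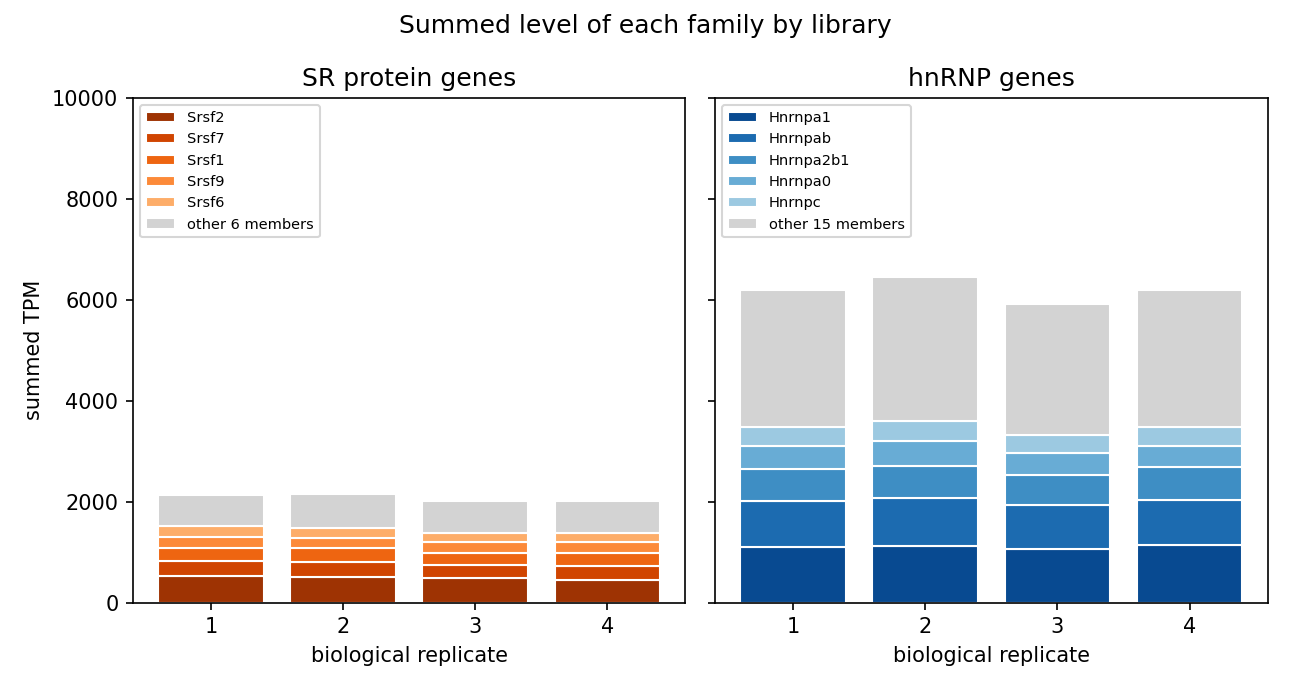
Summed TPM (y axis) of the SR protein genes (left) and the hnRNP genes (right) in biological replicates 1 to 4, with the 5 highest members of each family as separate segments and the others in grey. Hnrnp sums lie between 5925 and 6454 TPM and Srsf sums between 2005 and 2149 TPM.

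A few members carried much of each sum. The 3 highest genes made up 49.8 ± 0.933% of the Srsf sum and 42.6 ± 0.561% of the Hnrnp sum (SD, n = 4). Srsf2 alone made up 23.7 ± 1.14% of the Srsf sum, and Hnrnpa1 17.9 ± 0.382% of the Hnrnp sum. Ordered by mean TPM over both families, 19 of the 30 pairs of neighbours had overlapping ranges over the 4 libraries. The order was clear of overlap at the top, where Hnrnpa1, Hnrnpab, Hnrnpa2b1 and Srsf2 followed each other, and at the bottom, from Hnrnpll to Hnrnph3, Hnrnpr and Srsf12. Srsf2 and Hnrnpa0 overlapped, as did the run from Hnrnpc through Hnrnpk, Hnrnpm and Hnrnpa3 to Hnrnpl, and most neighbours in the middle.

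Among SR proteins with the classical domain layout, Srsf2, an SR protein of nuclear speckles, was the highest. It stood at 534, 513, 479 and 446 TPM in replicates 1 to 4, a mean of 493 ± 38.7 TPM (SD, n = 4), and ranked 254 among all protein-coding genes. It was highest in replicate 1 and lowest in replicate 4, and its range did not overlap that of any other Srsf member. Its spread over libraries on the log2 count scale, 0.30 from the lowest to the highest, was the widest of the 30 members tested. Malat1 and Gm42418 were also highest in replicate 1 and lowest in replicate 4; their part in the Srsf2 values was not tested. Srsf2 lies at chr11:116849901-116853094 (minus strand, mm10).

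Srsf7, an export adaptor with a zinc knuckle, followed at 283, 289.6, 266 and 281 TPM (279.7 ± 10 TPM, SD, n = 4). Srsf1, the founding member of the family, stood at 269.9, 282, 236 and 261 TPM (262 ± 19.8 TPM). Both were lowest in replicate 3 and highest in replicate 2, and their ranges overlapped. Srsf2 exceeded Srsf7 by 0.81 ± 0.11 on the log2(TPM + 1) scale in 4 of 4 libraries, a description only, because the pair was chosen by these levels. That difference was 1.19 in CPM and 1.46 with the length of the principal coding transcript. In CPM the highest Srsf member was Srsf1 at 462, with Srsf2 at 451.

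Srsf9, a close relative of Srsf1, stood at 218, 201, 214 and 207 TPM (209.8 ± 7.48 TPM, SD, n = 4). It was highest in replicate 1 and lowest in replicate 2. Srsf6, with a long arginine-serine tail, stood at 206, 194, 185 and 189.6 TPM (194 ± 8.71 TPM). It was highest in replicate 1 and lowest in replicate 3, and its range overlapped that of Srsf9. Srsf5 followed at 191 ± 4.06 TPM, with the lowest coefficient of variation among Srsf members (2.13%).

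Srsf3, the SR protein with the shortest coding sequence (164 codons), stood at 160.2, 167, 149 and 159 TPM (159 ± 7.40 TPM, SD, n = 4). It was highest in replicate 2 and lowest in replicate 3, as were Srsf7 and Srsf1. Srsf4, with 106 serine and arginine codon pairs, stood at 133, 141, 148 and 136 TPM (139 ± 6.48 TPM), which overlapped neither Srsf3 nor Srsf6. It was the one Srsf member highest in replicate 3 and lowest in replicate 1.

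With the full exon length, the SR family members outside the classical set were the lowest. Srsf11 stood at 89.1 ± 7.52 TPM. With the length of the principal coding transcript, Srsf11 stood at 168 TPM, above Srsf4 at 153 TPM. In CPM, Srsf11 stood at 232, above Srsf7 (197), Srsf4 (153) and Srsf9 (107), and Srsf10 at 128 also stood above Srsf9. Srsf10, which represses splicing when dephosphorylated, stood at 61.0, 65.5, 53.1 and 56.3 TPM (59.0 ± 5.41 TPM, SD, n = 4) and was highest in replicate 2 and lowest in replicate 3. Srsf12, a related gene, was at 0.132, 1.28, 0.635 and 0.917 TPM, from 6, 88, 59 and 29 counts. It was lowest in replicate 1 and highest in replicate 2, at counts too low to place its level firmly.

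Among the hnRNPs, Hnrnpa1, Hnrnpab and Hnrnpa2b1 led in TPM. Hnrnpa1, which binds splicing silencers and shuttles between nucleus and cytoplasm, stood at 1102, 1128, 1063 and 1139 TPM (1108 ± 33.6 TPM, SD, n = 4) and ranked 96 among protein-coding genes. It was lowest in replicate 3 and highest in replicate 4. Hnrnpab stood at 908, 937, 879 and 899.6 TPM (906 ± 24.03 TPM), with no value reaching the lowest of Hnrnpa1. Hnrnpa2b1, which also guides mRNA transport, stood at 630.2, 645, 579.6 and 646 TPM (625 ± 31.3 TPM), lowest in replicate 3 and below every value of Hnrnpab. Hnrnpa1 lies at chr15:103240432-103244955 (plus strand), Hnrnpab at chr11:51600100-51606847 (minus) and Hnrnpa2b1 at chr6:51460932-51469894 (minus).

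Hnrnpa0, whose 27.5% glycine codons were the highest share of any member, stood at 463, 488, 443 and 415 TPM (452 ± 31.0 TPM, SD, n = 4). It was lowest in replicate 4, as was Srsf2. Hnrnpc, a nuclear hnRNP that binds uridine tracts, stood at 376, 402, 365 and 385 TPM (382 ± 15.6 TPM). It was highest in replicate 2 and lowest in replicate 3, and its range lay below that of Hnrnpa0. Hnrnpa3, the last of the A group, stood at 311 ± 19.6 TPM.

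Hnrnpk, which binds cytidine-rich RNA through KH domains, stood at 363 ± 30.8 TPM. In TPM it had the widest relative spread of the Hnrnp members, a coefficient of variation (SD over mean) of 8.50%. On the log2 CPM scale its range over libraries was 0.20, narrower than that of Hnrnpm (0.29) and Hnrnpdl (0.28). Hnrnpm stood at 353, 306, 312 and 305 TPM (319 ± 22.8 TPM, SD, n = 4), with replicate 1 apart from the other 3. The same strand holds March2 over 24.9% of the exon bases of Hnrnpm, and reads there were not counted. Hnrnpu, a nuclear matrix and chromatin protein, stood at 271 ± 14.0 TPM. Its long exon sequence made it the second Hnrnp member in CPM, at 972.

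Hnrnpl, a regulator of CD45 exons, stood at 291, 315, 292 and 305 TPM (301 ± 11.6 TPM, SD, n = 4). Hnrnpll, its T cell relative, stood at 55.3, 61.3, 52.8 and 54.8 TPM (56.1 ± 3.65 TPM). Both were highest in replicate 2, and the levels were far from overlapping. Hnrnpl exceeded Hnrnpll 5.37 ± 0.21-fold, or by 2.40 ± 0.06 on the log2(TPM + 1) scale in 4 of 4 libraries (exact two-sided sign-flip permutation p = 0.13, adjusted 0.13). With the length of the principal coding transcript the means were 464 and 146 TPM, since the annotated exons of Hnrnpll add up to 3.75 times the length of that transcript. Hnrnpll (chr17:80029487-80062334) and Srsf7 (chr17:80200089-80207305) lie close together on the minus strand.

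In the group that binds guanine tracts, Hnrnph1 stood at 227, 242, 202 and 220.5 TPM (223 ± 16.7 TPM, SD, n = 4), highest in replicate 2 and lowest in replicate 3. The X-linked Hnrnph2 stood at 58.2, 57.3, 53.9 and 58.5 TPM (57.0 ± 2.14 TPM), also lowest in replicate 3. The coding sequences of the pair were 85.9% identical, the highest of the 9 pairs of related members compared. Hnrnph1 exceeded Hnrnph2 by 1.95 ± 0.08 (log2) in 4 of 4 libraries (exact two-sided sign-flip permutation p = 0.13, adjusted 0.13). Hnrnpf of the same group stood at 166 ± 7.04 TPM, and Hnrnph3 at 38.7, 38.7, 36.4 and 39.5 TPM (38.4 ± 1.34 TPM), clear of every other member.

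Hnrnpd, also known as AUF1, which binds AU-rich elements of labile mRNAs, stood at 73.8, 85.2, 79.3 and 83.1 TPM (80.4 ± 5.00 TPM, SD, n = 4). Its relative Hnrnpdl stood at 153, 144, 127 and 135 TPM (139.6 ± 11.02 TPM). Replicate 1 was the lowest library for Hnrnpd and the highest for Hnrnpdl. The log2 difference of Hnrnpd from Hnrnpdl was -1.04 in replicate 1 and -0.75, -0.68 and -0.69 in the others, with a mean of -0.79 ± 0.17 and an exact two-sided sign-flip permutation p of 0.13 (adjusted 0.13). The genes lie near each other on chromosome 5, at chr5:99955935-99978938 and chr5:100033577-100039664 on the minus strand.

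Hnrnpul1 and Hnrnpul2, relatives of hnRNP U, had the lowest coefficients of variation of TPM, 1.35% and 1.64%. On the log2 CPM scale Hnrnpul2 had the narrowest range over libraries, while that of Hnrnpul1 (0.07) was wider than that of Hnrnpl (0.04). Hnrnpul2 stood at 207, 215, 208 and 209.5 TPM (209.8 ± 3.44 TPM, SD, n = 4). Hnrnpul1 stood at 167, 168, 168 and 163 TPM (167 ± 2.25 TPM), below every value of Hnrnpul2. The lowest Hnrnp member was Hnrnpr, a relative of the RNA-binding protein Syncrip, at 16.1, 17.4, 15.5 and 15.7 TPM (16.2 ± 0.840 TPM), with its highest value in replicate 2. Its annotated exons add up to 22199 bases, the longest of all members, and in CPM it stood at 111, above Hnrnph2 (76.9) and Hnrnph3 (37.3).

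The 9 pairs of related members were compared within each library. In TPM each difference kept its sign in 4 of 4 libraries, so each exact two-sided sign-flip permutation p was 0.13, which remained 0.13 after adjustment. Hnrnpa1 exceeded Hnrnpa2b1 by 0.83 ± 0.03 (log2), Srsf1 exceeded Srsf9 by 0.32 ± 0.14 and Srsf10 exceeded Srsf12 by 5.15 ± 0.43, where the pseudocount of 1 holds down the value because Srsf12 lies near 1 TPM. The difference of Srsf3 from Srsf7 was -0.81 ± 0.02, that of Srsf4 from Srsf6 was -0.47 ± 0.12, and that of Hnrnpul1 from Hnrnpul2 was -0.33 ± 0.03. Their coding identity ranged from 63.8% (Hnrnpul1 and Hnrnpul2) to 73.3% (Srsf4 and Srsf6).

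The direction of 4 of these pairs turned on the length used for the genes. With the length of the principal coding transcript, Hnrnpa1 lay below Hnrnpa2b1 (-1.16), Hnrnpul1 above Hnrnpul2 (0.70) and Srsf3 above Srsf7 (0.15). Srsf1 and Srsf9 then differed by -0.10 (exact two-sided sign-flip permutation p = 0.25). In CPM, without length correction, the first 3 of these pairs turned as well, at -0.95, 0.26 and 0.35. Srsf1 and Srsf9 differed by 2.10 in CPM. The other 5 pairs kept their direction under both, but not their size. The difference of Hnrnpd from Hnrnpdl was -0.18 in CPM and -1.48 with the principal transcript, and that of Srsf4 from Srsf6 was -0.91 and -0.26. Hnrnpl exceeded Hnrnpll by 1.45 and 1.66, Hnrnph1 exceeded Hnrnph2 by 2.37 and 3.07, and Srsf10 exceeded Srsf12 by 6.27 and 5.67.

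Levels with the length of the principal transcript put Hnrnpa2b1 first of all members, at 1720 ± 88.2 TPM (SD, n = 4), ahead of Hnrnpa1 at 769 ± 23.4, Hnrnpab at 739 ± 21.97 and Hnrnpa3 at 704 ± 43.8 TPM. The length of Hnrnpa1 itself was the same under both, and TPM is scaled to a fixed total over all genes. Hnrnpa1 exceeded Hnrnpab by 0.29 ± 0.03 (log2) with the full exon length, by 0.059 with the principal transcript, and differed by -0.25 in CPM; the pair was chosen by its levels and has no test. Srsf2 stayed the highest Srsf member at 534 ± 44.7 TPM, and Srsf5 came second at 337 ± 8.07 TPM in place of Srsf7. The family sums were 7512 ± 314 TPM for Hnrnp and 2262 ± 96.0 TPM for Srsf.

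**Figure D4:**
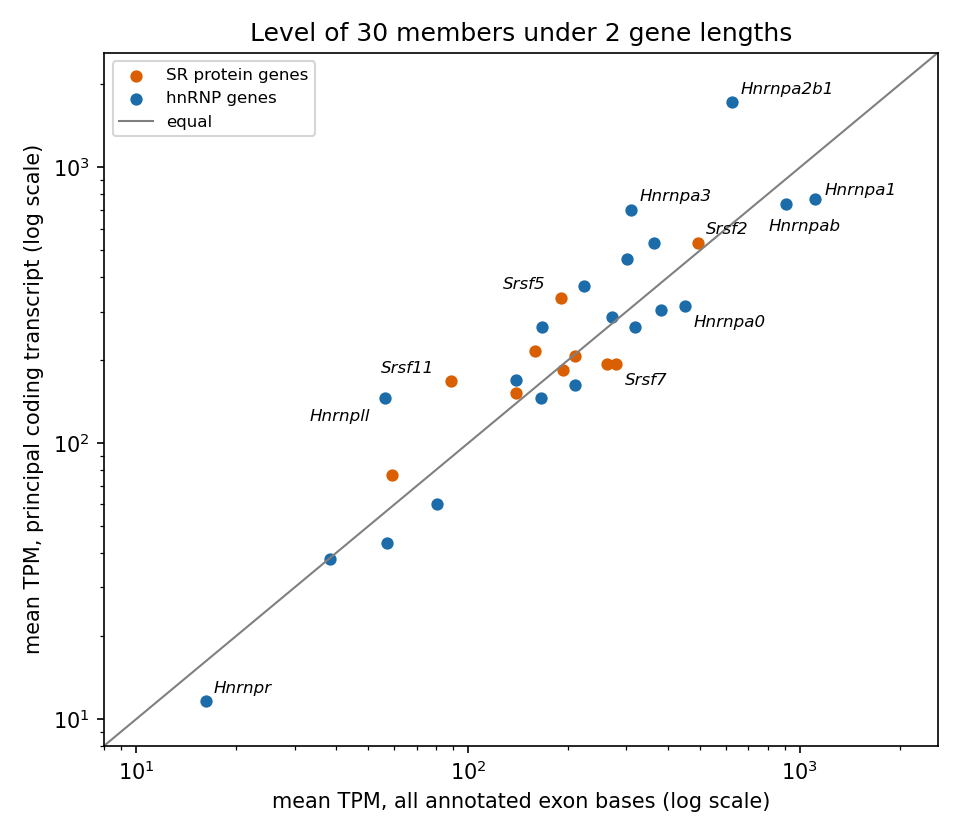
Mean TPM over 4 libraries with the length of all annotated exon bases (x axis, log scale) against mean TPM with the length of the principal coding transcript (y axis, log scale) for the 30 expressed members, with a line where both are equal. Hnrnpa2b1 (625 and 1720 TPM), Hnrnpa3 and Hnrnpll lie well above the line, and Hnrnpa1 (1108 and 769 TPM) below it.

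The ratio of annotated exon length to principal transcript length varied widely among the members. It had a median of 1.56 in Srsf and 1.35 in Hnrnp members against 1.27 over tested protein-coding genes. It lay above that value in 8 of 11 Srsf and 11 of 20 Hnrnp members, and it was largest in Hnrnpa2b1 (3.96), Hnrnpll (3.75) and Hnrnpa3 (3.26). SR protein genes are known for exons that lead to nonsense-mediated decay of their own transcripts. A transcript annotated as a target of that decay was listed for 9 of 11 Srsf and 10 of 20 Hnrnp members, against 29.4% of tested protein-coding genes. A transcript with a retained intron was listed for 8 of 11 Srsf and 14 of 20 Hnrnp members, against 60.1%, with up to 13 such transcripts in Hnrnpk and 11 in Srsf11. Gene counts do not show how much of a gene's RNA comes from each transcript.

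Reads that map to more than 1 place were not counted, so members with processed copies elsewhere may be undercounted. A shared window of 50 bases in the coding sequence is printed for the 3 members with the highest share of shared windows. It is in lower case throughout because the whole window is shared.
Hnrnpa3: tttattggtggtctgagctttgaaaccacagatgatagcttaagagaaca
Hnrnpa1: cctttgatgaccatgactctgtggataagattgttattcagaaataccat
Hnrnpf: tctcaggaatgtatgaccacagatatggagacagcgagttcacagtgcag
The Hnrnpa3 window (bases 112 to 161 of the coding sequence) occurred in transcripts of 23 other annotated genes, the Hnrnpa1 window (bases 455 to 504) in 9 and the Hnrnpf window (bases 803 to 852) in 8.

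Of all windows of 50 bases in the members' transcripts, the share found in another annotated gene was 43.2% in Hnrnpf, 28.2% in Hnrnpa1, 26.9% in Hnrnpa3, 15.9% in Hnrnph2 and 14.5% in Hnrnpk. It was 10.04% to 10.3% in Srsf3, Srsf5 and Srsf10, and no window was shared in 10 members, among them Srsf1, Srsf2, Srsf4, Srsf6 and Srsf9. Divided by the share of unshared windows, Hnrnpa1 came to 1544 TPM and Hnrnpf to 293 TPM. The division treats each shared window as lost to counting, while the files count read pairs. Its values were not rescaled to a fixed total, and how many reads were lost was not tested. Beside the members, few counts had been assigned to these copies. Reads that map to both a member and its copy were left uncounted, so the levels of the copies do not show how many were lost. Gm7964, a copy of Hnrnpk, stood at 39.5 TPM on average, against 363 TPM for Hnrnpk itself. Gm10052, a copy of Hnrnpa1, stood at 11.1 TPM, against 1108 TPM for Hnrnpa1.

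The spread between libraries was small for both families. The coefficient of variation of the expressed members had a median of 4.65% in Srsf and 5.08% in Hnrnp, from 1.35% in Hnrnpul1 to 9.17% in Srsf10. Over 13478 tested genes the median was 9.89%. Abundant genes vary less in relative terms, and among 3731 protein-coding genes at 50 TPM or more it was 6.13%, against 4.83% for the 28 members at that level. From the lowest to the highest library the members differed by a median of 0.13 (log2 CPM), from 0.03 in Hnrnpul2 to 0.30 in Srsf2, against 0.31 over all tested genes.

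**Figure D5:**
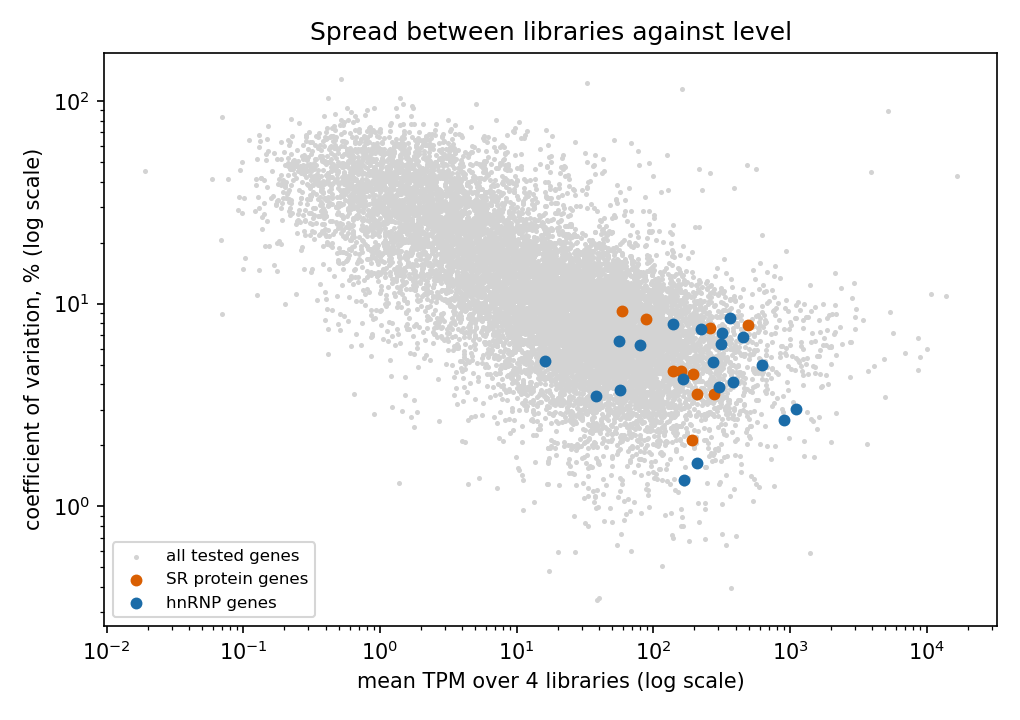
Coefficient of variation over 4 libraries (y axis, %, log scale) against mean TPM (x axis, log scale) for all 13478 tested genes in grey, SR protein genes in orange and hnRNP genes in blue. All 30 tested members lie under 10%, between 1.35% (Hnrnpul1) and 9.17% (Srsf10).

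A goodness-of-fit test in edgeR asked which genes differed between the libraries by more than genes of like abundance. It called 0 of the 30 members tested, where 0.378% of all genes were called (51 of 13478). Leaving out 1 library gave 17 (without replicate 1), 23 (without replicate 3), 33 (without replicate 4) or 56 calls over all genes and 0 among the members. With all 4 libraries, no member had an unadjusted p under 0.05, a level passed by 5.97% of all genes (805). The lowest unadjusted p among the members was 0.246, for Hnrnpdl, with an adjusted p of 0.99985 in edgeR. limma and DESeq2 also called 0 members, with lowest unadjusted p-values of 0.131 and 0.115 for Hnrnpm. Srsf12 was too low to enter the test; without the filter on low counts its unadjusted p was 0.0888 and its adjusted p 0.999991 in edgeR. The test is made gene by gene.

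A shift shared by many members was looked at as each member's log2 CPM minus its own mean over libraries. Its median over Srsf members was 0.06, 0.01, -0.05 and -0.03 in replicates 1 to 4, and over Hnrnp members 0.03, 0.02, -0.04 and -0.01, while the median over all tested genes was 0.00 in every library. Replicate 3 was the lowest library for 6 of 10 Srsf and 13 of 20 Hnrnp members, against 19.9% of all tested genes, and in TPM for the same numbers of members, against 23.6%. The highest library depended on the scale. In log2 CPM it was replicate 1 for 6 of 10 Srsf and 10 of 20 Hnrnp members, against 30.3% of all tested genes. In TPM it was replicate 1 for 3 and 2 members, against 23.3%, and replicate 2 for 6 and 13 members, against 38.7%. Scaled by library totals, the Hnrnp median was also higher in replicate 2 (0.04) than in replicate 1 (0.02). The family medians of log2 CPM were above 0 in replicates 1 and 2, which held Xist at 312 and 331 TPM. They were below 0 in replicates 3 and 4, which held Xist at 0.539 and 2.38 TPM. In log2 TPM the Hnrnp median was -0.00054 in replicate 1 and 0.07 in replicate 2. The Srsf medians in log2 TPM were 0.03 and 0.06, and those over all tested genes -0.03 and 0.04. Replicate 3 is also the deepest library, and replicate 1 the highest in Malat1 and Gm42418. The part of these in the shift was not tested.

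Other genes of the splicing machinery were described from 5 lists of related factors. The edgeR test called 0 of the 71 listed genes it tested, where 0.378% of all genes were called. All 11 hnRNP proteins under other names were expressed, with a median of 87.0 TPM. The poly(C)-binding proteins Pcbp1 and Pcbp2 stood at 877 ± 23.2 and 738 ± 35.7 TPM and the polypyrimidine tract binder Ptbp1 at 508 ± 11.1 TPM (SD, n = 4), levels between those of Hnrnpab and Hnrnpa0. Of 12 SR-related proteins 11 were expressed (median 81.0 TPM), the highest being the speckle protein Srrm2 at 411 ± 11.1 TPM, Rnps1 at 229 ± 10.4 TPM and Srrm1 at 149 ± 5.75 TPM. Srrm4, a neural regulator, had no counts.

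Among the 11 kinases, import receptors and methyltransferases that act on these proteins, 10 were expressed, with a median of 59.5 TPM. The arginine methyltransferases Prmt1 and Prmt5 stood at 306 ± 14.8 and 122 ± 6.24 TPM and the SR protein kinase Srpk1 at 79.8 ± 3.35 TPM (SD, n = 4), while Srpk3 had no counts. All 22 core spliceosome genes were expressed (median 161 TPM). The highest were Snrpb at 748 ± 68.9, Sf3b2 at 437 ± 7.08 and U2af1 at 368 ± 24.7 TPM. Of 21 other splicing regulators 16 were expressed, with a median of 31.0 TPM, the highest being Khdrbs1 at 136 ± 7.61, Rbm39 at 125 ± 8.68 and Rbm10 at 124 ± 8.54 TPM. Rbfox1 had no counts.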

How the data were processed

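RNA from 4 libraries of regulatory T cells was quantified per gene. The authors deposited raw counts of read pairs per gene, made with featureCounts 1.4.6-p4 and the GENCODE M13 annotation, with strand setting 2 and both ends mapped, per the file headers; the labels name mm10. Reads that map to several places or overlap several genes were left uncounted, as the file headers record. Trimming and alignment settings: not given in the sources used here. Symbols came from GENCODE M21, in which 224 identifiers had no match. TPM and CPM were computed here from the deposited counts and exon lengths, and a floor of 3 counts lies between 0.0316 and 0.0919 CPM (counting error only).

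Excess variation was tested on counts with edgeR 4.0.16 under R 4.3.3. The steps were filterByExpr (minimum count 10), TMM, an intercept-only design and the trended dispersion, then a goodness-of-fit test per gene, one-sided, with Benjamini-Hochberg adjustment over 13478 genes and a threshold of 0.05. The script was tested on simulated data. limma 3.58.1 and DESeq2 1.42.0 were alternatives. Contrasts used log2(TPM + 1) within a library, except that the family sums had no pseudocount, and deviations used log2 CPM with a prior count of 2. Members and lists were chosen with earlier results of these data known. Values per library are given for the 5 highest and 2 lowest members of each family and for related pairs; Hnrnpm was added after its values were seen. For each other list at most the 3 highest genes are named, with any called gene and, added after their values were seen, genes without counts. Coding features, shared windows and lengths of principal transcripts came from GENCODE M21 transcripts (Biopython 1.88); principal transcripts are the longest of those so tagged. With 1 group, no condition could be compared. The matching coding stretch of 1 member is not reported here.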

Additional observations from a re-analysis of the deposited data

Results flagged for a closer look

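Among 46 values examined over the 4 libraries, 2 had a library far from the other 3, measured as the gap to the nearest library over the whole range, past Dixon's 95% critical value. Chance picks out about 1 in 20 such sets of 4. Hnrnpm stood at 353 TPM in replicate 1, with a gap of 0.859 of the range. The log2 difference of Hnrnpa1 from Hnrnpab was 0.34 in replicate 4, with a gap of 0.849 of the range.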

How the results depend on the processing

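Under other settings 8 values reversed, 9 moved and 136 kept their direction or count, among them values that changed in size (the median difference of the families was 0.78 in CPM, and Srsf1 from Srsf9 2.10). In CPM the log2 difference of Hnrnpa1 from Hnrnpab was -0.25, of Hnrnpa1 from Hnrnpa2b1 -0.95, of Hnrnpul1 from Hnrnpul2 0.26, of Srsf3 from Srsf7 0.35 and of Srsf2 from Srsf7 1.19. With the length of the principal coding transcript, chosen after seeing the data, these were 0.059, -1.16, 0.70, 0.15 and 1.46, and Srsf1 from Srsf9 was -0.10. Divided by unshared windows, also chosen after seeing the data, Hnrnpa1 from Hnrnpab was 0.77. All these changes come from the length or window share put in. The number of all genes called for excess variation was 51, against 931 with a common dispersion and 15 in limma; leaving out 1 library gave 17 to 56, with 17 without replicate 1, 23 without replicate 3 and 33 without replicate 4, and the cause was not tested. Called members stayed at 0 in every setting run. The planned window count over the genome was not run. No paired analysis was possible because the samples form 1 group. At 3 to 4 libraries no sign-flip p can pass the threshold, and levels of Srsf12 rest on few counts.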
